A study of Mus musculus with 18 samples.

Results

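The 32 genes described here encode the import, activation and oxidation of fatty acids in mitochondria and peroxisomes, the ketone body enzymes, the butyrate transporters of the colon and the regulators that control them. They were chosen by symbol, and all 32 were found among the 35976 symbols of the expression table and were high enough to be tested. The study sequenced RNA from 18 mouse colon samples taken at day 2, 6 in each of 3 groups. Sham mice served as controls without colitis. Mice of both other groups had colitis from TNBS, which makes colon proteins immunogenic, and were given either vehicle or ISM012-042. The series title calls this compound gut-restricted and an inhibitor of PHD, the oxygen-sensing enzymes whose hydroxylation of hypoxia-inducible factor leads to its breakdown. Strain, sex, age, dose and route are not stated in the labels. Whether the 6 samples of a group are separate mice is not stated either, and the p-values therefore cover only the spread between samples, which may be technical.

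Colonocytes are unusual in taking much of their energy from butyrate made by gut bacteria, which enters through the proton-coupled transporter Slc16a1 (MCT1) and the sodium-coupled transporter Slc5a8 (SMCT1). Long-chain fatty acids are activated to acyl-CoA, carried into mitochondria by the carnitine shuttle and shortened in repeated cycles of dehydrogenation, hydration, a further dehydrogenation and thiolysis. The nuclear receptors PPAR alpha and ERR alpha, with the coactivators PGC-1 alpha (Ppargc1a) and PGC-1 beta (Ppargc1b), drive transcription of these enzymes, and acetyl-CoA that is not burned can leave the cell as ketone bodies.

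Values are TPM, reads per gene length scaled to a total of 1000000 in each library, so levels of different genes can be compared within a library. The depth of sequencing is unknown, and counting intervals cannot be given. Differences are on the log2(TPM + 1) scale, with their SE, and understate the change of low genes. Calls use limma with an adjusted p below 0.05 over the 14129 genes tested. Between 12681 and 14632 genes reached a TPM of 1 in a library. Transcripts of the 13 mitochondrially encoded genes took 29.4% to 42.6% of TPM in sham, 22.4% to 57.8% in vehicle and 20.1% to 39.8% in ISM012-042, and a larger share lowers the TPM of all nuclear genes. Hoxb13, a homeobox gene of the distal colon and rectum, was at 9.05 to 16.1 TPM in sham replicates 1 and 6 against 218 to 288 in the other sham libraries, and at 1.52 to 3.4 in vehicle replicates 3, 4 and 5 against 84.5 to 179 in the other vehicle libraries. It ranged from 0.329 to 219 TPM in ISM012-042. The summed TPM of 9 epithelial markers was 7709 to 12119 in sham, 4659 to 11634 in vehicle and 8099 to 9685 in ISM012-042. That of 10 neutrophil markers was 36.7 to 722.6, 204.0 to 28034 and 98.8 to 7529. The sham sum, with a mean of 368.2 TPM, was mostly 1 marker, Ly6g, with a sham mean of 352.0 TPM. The highest vehicle sum was that of replicate 2, and the next was 1587 TPM in replicate 6. In bulk tissue, fewer cells of a type and less RNA per cell cannot be told apart.

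The members covered a wide range of levels. Fabp2, an intestinal fatty acid carrier, had the highest mean, 373.9 TPM over the 18 libraries, which placed it 275th among the genes tested. Hadh, the short-chain hydroxyacyl-CoA dehydrogenase, followed at 204.6 TPM. In sham the 5 genes of acyl-CoA dehydrogenation and electron transfer lay between group means of 67.2 TPM (Etfdh) and 143.6 TPM (Acadl). The ketone body enzymes Bdh1 and Acat1 stood at 48.3 ± 6.39 and 58.0 ± 11.7 TPM (SD, n = 6). At the low end in sham were Acot1 at 2.22 TPM and Fabp1, the liver-type carrier, at 1.16 TPM, with Fabp1 listed at 0 in 2 of 6 sham libraries and in 1 of 6 in each of the other groups.

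The comparison of vehicle with sham asks what the colitis model did to these genes. The coactivators and a butyrate transporter fell, a cytosolic acyl-CoA thioesterase rose, and none of the enzymes of the oxidation cycle itself passed the test. Of the 32 members 3 fell, Ppargc1a, Ppargc1b and Slc5a8, against 4.13% of all genes tested, and 1 rose, Acot1, against 0.326%. Only the fall of Ppargc1a passed in all 34 alternative settings, against 16 for Ppargc1b, 21 for Slc5a8 and 16 for Acot1. The median member differed by 0.06 and the median of all genes by -0.07, and 6 members had an unadjusted p below 0.05, against 18.1% of all genes. With median-ratio scaling, which sets the libraries to a common median ratio, 1 member rose and 4 fell, and over all genes 517 rose (3.66%) and 961 fell (6.80%) in place of 46 and 584.

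Ppargc1a encodes the coactivator PGC-1 alpha, which raises transcription of mitochondrial and fatty acid oxidation genes. Its lowest, median and highest levels were 15.4, 24.1 and 35.5 TPM in sham, 3.46, 6.81 and 14.9 TPM in vehicle and 6.76, 12.4 and 21.1 TPM in ISM012-042. Every vehicle library lay below every sham library, which held for 1.91% of all genes tested, while the ISM012-042 libraries overlapped both groups. Vehicle against sham the gene fell by 1.61 ± 0.31 (adjusted p = 0.00718). It passed in 34 of 34 alternative settings, among them -1.48 with Hoxb13 as a covariate (adjusted p = 0.0178) and -1.39 with the epithelial markers as a covariate (adjusted p = 0.0338). Leaving out any single library gave -1.80 to -1.44.

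The 250 bases before the Ppargc1a start in the RefSeq promoter table (GRCm38.p6, minus strand, chr5:51567726-51567975) are shown because this is the member with the most stable call. The annotated gene extends upstream of this start, to 52115853, so the window lies inside it and precedes only that start. Capitals mark the core of the hypoxia response element, ACGTG on either strand, 51 to 47 bases before the start. The same letters occurred in 16.6% of the 32851 promoter windows of that length, and in 3 of the 28 members found in the table, the others being Acadvl and Slc16a1, so the match is a description and not a binding site.
Ppargc1a: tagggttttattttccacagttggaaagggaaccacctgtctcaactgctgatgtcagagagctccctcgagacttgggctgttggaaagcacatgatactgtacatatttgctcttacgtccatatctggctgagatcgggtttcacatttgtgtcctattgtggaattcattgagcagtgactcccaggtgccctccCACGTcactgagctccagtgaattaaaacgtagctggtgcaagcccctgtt

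Ppargc1b, the related coactivator PGC-1 beta, had lowest, median and highest levels of 10.4, 13.2 and 24.8 TPM in sham, 5.50, 6.65 and 13.6 TPM in vehicle and 8.06, 11.9 and 16.4 TPM in ISM012-042. The groups overlapped through vehicle replicate 6, the highest vehicle library. The gene fell by 0.87 ± 0.23 (adjusted p = 0.0415) and passed in 16 of 34 settings. The call was lost without sham replicate 1, 2, 4 or 6, vehicle replicate 2, 3, 4 or 5 or ISM012-042 replicate 1, 3, 4 or 5, with adjusted p from 0.0511 to 0.111, and with Hoxb13 (0.0691) or the epithelial markers (0.103) as a covariate. Among the other regulators, the receptor genes Ppara and Esrra differed by 0.05 ± 0.46 and -0.10 ± 0.12, and Pdk4, the kinase that turns off pyruvate dehydrogenase when fat is burned, by 1.11 ± 0.74, and none of these passed. Esrra was even across groups, at 68.4 ± 4.39, 64.2 ± 10.6 and 71.6 ± 7.23 TPM (SD, n = 6).

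Slc5a8 carries butyrate and other monocarboxylates with sodium across the apical membrane. Its lowest, median and highest levels were 74.1, 85.6 and 204.6 TPM in sham, 16.5, 43.9 and 101.7 TPM in vehicle and 41.8, 47.9 and 77.4 TPM in ISM012-042. Vehicle replicate 1 was the library that reached into the sham range. Slc5a8 fell by 1.29 ± 0.33 (adjusted p = 0.0345) and passed in 21 of 34 settings. The call was lost without sham replicate 1, 2, 4 or 5 or vehicle replicate 3, 4 or 5, with adjusted p from 0.0541 to 0.0930. With Hoxb13 as a covariate the difference was -0.99 (adjusted p = 0.0688), and with the epithelial markers as a covariate it was -0.73 (adjusted p = 0.0885). All 9 epithelial markers were lower in vehicle than in sham, with a median of -0.40, and none passed.

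Slc16a1, the proton-coupled butyrate and lactate transporter, had lowest, median and highest levels of 75.0, 114.0 and 168.9 TPM in sham, 24.1, 63.0 and 116.5 TPM in vehicle and 59.2, 82.4 and 102.1 TPM in ISM012-042. The vehicle libraries fell into 2 sets, 87.6 to 116.5 TPM in replicates 1, 2 and 6 and 24.1 to 38.3 TPM in replicates 3, 4 and 5, which are the libraries with low Hoxb13 and with the highest mitochondrial shares of that group. The difference from sham was -1.02 ± 0.32 (adjusted p = 0.0817), which did not pass. It passed in 6 of 34 settings, among them median-ratio scaling (-0.91, adjusted p = 0.0158), the mitochondrial share as a covariate (-0.80, adjusted p = 0.00231) and the fit without vehicle replicate 1 (-1.23, adjusted p = 0.0206). With Hoxb13 as a covariate the difference was -0.67 (adjusted p = 0.136), and with median-ratio scaling as well it was -0.69 and passed (adjusted p = 0.0239).

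The windows before the starts of both transporter genes (GRCm38.p6, plus strand, chr10:88885742-88885991 for Slc5a8 and chr3:104638414-104638663 for Slc16a1) are shown because these genes feed butyrate to the pathway. Capitals again mark ACGTG on either strand, which in Slc16a1 reads the same on both strands. None of the 6 motifs searched was found in the Slc5a8 window, which says only that these letters are not in it.
Slc5a8: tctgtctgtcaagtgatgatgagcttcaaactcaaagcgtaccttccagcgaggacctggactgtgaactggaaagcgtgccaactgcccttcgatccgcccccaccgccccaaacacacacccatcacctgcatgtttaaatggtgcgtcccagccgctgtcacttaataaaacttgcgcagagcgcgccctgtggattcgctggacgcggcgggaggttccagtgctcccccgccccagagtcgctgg
Slc16a1: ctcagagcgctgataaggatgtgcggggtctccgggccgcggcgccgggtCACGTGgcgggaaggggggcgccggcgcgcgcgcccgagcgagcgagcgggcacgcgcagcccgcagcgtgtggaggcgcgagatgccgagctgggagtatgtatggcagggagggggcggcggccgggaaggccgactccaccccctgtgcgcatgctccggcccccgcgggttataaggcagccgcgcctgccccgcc

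The other genes of entry and activation did not pass. Fabp2 differed by 0.07 ± 0.88 and Fabp1 by 1.06 ± 0.67. The long-chain acyl-CoA synthetases Acsl1 and Acsl5 differed by 0.61 ± 0.53 and -0.07 ± 0.25. The 3 genes of the carnitine shuttle, Cpt1a, the rate-limiting carnitine palmitoyltransferase of the outer membrane, Slc25a20, the carrier, and Cpt2, of the inner membrane, lay between -0.18 and 0.11. The acyl-CoA dehydrogenases for very long (Acadvl), long (Acadl), medium (Acadm) and short chains (Acads) and Etfdh, which passes their electrons to ubiquinone, lay between -0.22 and 0.09. The trifunctional protein subunits Hadha and Hadhb and the dehydrogenase Hadh lay between -0.07 and 0.17, and the thiolase Acaa2 was at 0.61 ± 0.40. Acat1 and Bdh1 were at -0.19 ± 0.20 and -0.12 ± 0.18. The SE of these genes of the shuttle, the cycle and the ketone bodies ran from 0.17 (Hadh) to 0.40 (Acaa2), which limits the size of change that 6 libraries a group can show.

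Acot1, a cytosolic thioesterase that releases free fatty acids from long-chain acyl-CoA and is a classical PPAR alpha target, was the member that rose. Its lowest, median and highest levels were 1.39, 2.29 and 2.83 TPM in sham, 3.24, 9.51 and 19.6 TPM in vehicle and 4.09, 9.47 and 23.8 TPM in ISM012-042. All libraries of both colitis groups lay above all sham libraries, which for vehicle over sham held for 0.687% of all genes and for ISM012-042 over sham for 3.80%. No member lay apart below sham in ISM012-042, against 1.05% of all genes. Vehicle against sham it rose by 1.51 ± 0.41 (adjusted p = 0.0440) and passed in 16 of 34 settings. The call was lost without any 1 of the 6 sham replicates, without vehicle replicate 2, 3, 5 or 6 and without ISM012-042 replicate 1, with adjusted p from 0.0544 to 0.0902 and values from 1.27 to 1.56, and with Hoxb13 as a covariate it was 1.34 (adjusted p = 0.0849). The 11 adipocyte markers, of a tissue that also holds PPAR targets, were all higher in vehicle than in sham, with none passing and summed levels of 83.8 to 3614 TPM in sham, 82.6 to 3419 in vehicle and 268.8 to 4514 in ISM012-042, and with their mean as a covariate Acot1 was at 1.35 (adjusted p = 0.0629). The part of adipocyte content in the rise of Acot1 was not tested. Of 9 markers of brown adipocytes and striated muscle, 7 were too low to test, and Ucp1 and Myh4 were at or near 0 TPM. The tested ones were Ckm, with means of 15.1 TPM in sham, 11.7 in vehicle and 16.1 in ISM012-042, and Acta1, with means of 2.43, 2.14 and 3.82 TPM.

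Acot2, the mitochondrial thioesterase, had lowest, median and highest levels of 2.92, 4.05 and 6.17 TPM in sham, 2.39, 11.1 and 17.6 TPM in vehicle and 4.93, 9.79 and 25.4 TPM in ISM012-042. Vehicle replicate 1 was the lowest library of all. The difference of vehicle from sham was 0.93 ± 0.41 (adjusted p = 0.235), and without vehicle replicate 1 it was 1.25 (adjusted p = 0.0458). Both thioesterase values are uncertain, because the longest coding transcripts of Acot1 and Acot2 are 94.3% identical over 1330 aligned bases, 16.5% of the 100-base stretches of Acot1 also occur in Acot2, and the labels do not say how reads shared between them were assigned.

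The genes lie beside each other on mouse chromosome 12, Acot2 at 83987861 to 83993877 and Acot1 at 84009502 to 84017670, with 15624 bases between them. Their upstream windows (GRCm38.p6, plus strand, chr12:84009252-84009501 for Acot1 and chr12:83987611-83987860 for Acot2) are printed to let the neighbours be compared. Neither window held any of the 6 motifs.
Acot1: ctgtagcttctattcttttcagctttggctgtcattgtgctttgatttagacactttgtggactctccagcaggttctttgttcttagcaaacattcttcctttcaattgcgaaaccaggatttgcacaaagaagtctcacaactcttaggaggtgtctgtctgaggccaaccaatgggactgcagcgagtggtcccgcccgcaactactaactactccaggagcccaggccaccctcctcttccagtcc
Acot2: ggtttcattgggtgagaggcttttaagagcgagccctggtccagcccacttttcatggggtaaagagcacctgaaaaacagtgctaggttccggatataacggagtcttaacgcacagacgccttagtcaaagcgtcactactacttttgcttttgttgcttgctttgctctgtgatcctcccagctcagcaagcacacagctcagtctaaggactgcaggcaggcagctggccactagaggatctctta

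The remaining auxiliary enzymes, Decr1, which reduces dienoyl-CoA from unsaturated fats, and the enoyl-CoA isomerases Eci1 and Eci2 differed by -0.09 ± 0.17, 0.11 ± 0.17 and 0.26 ± 0.20. Peroxisomal Ehhadh, the bifunctional enzyme, and Acaa1b, a thiolase, differed by -0.22 ± 0.29 and 0.67 ± 0.52, and neither passed. Acaa1b is also uncertain, since its transcript is 95.7% identical to that of Acaa1a over 1471 aligned bases.

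**Figure D1:**
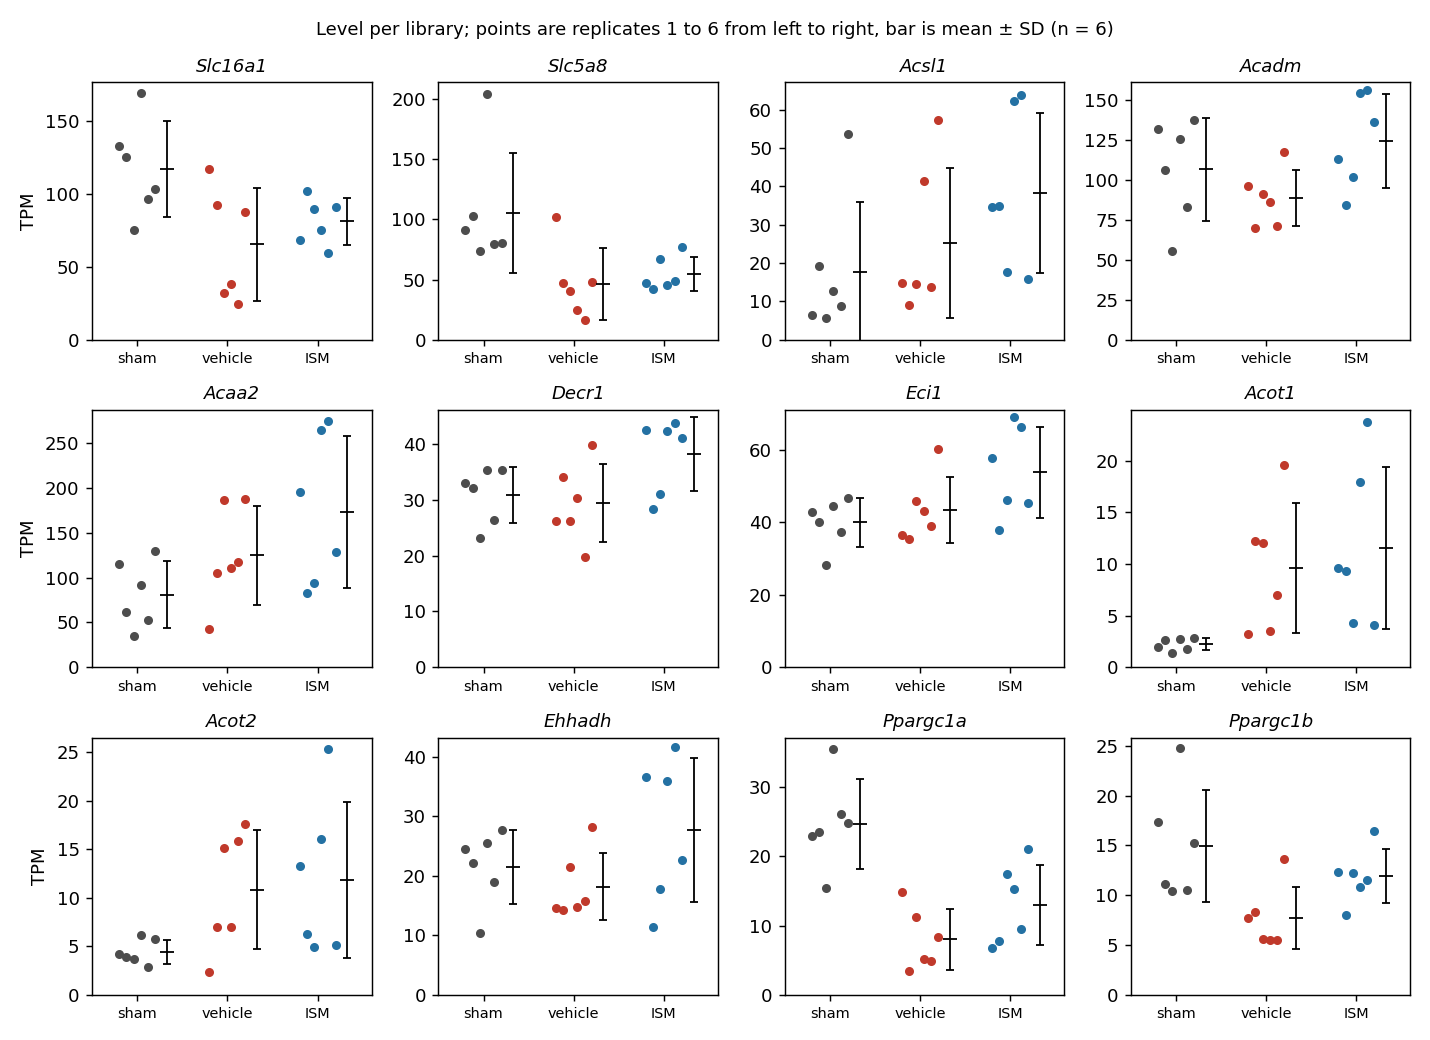
Level in TPM (vertical axes from 0, linear) of 12 members in each library of the sham, vehicle and ISM012-042 (ISM) groups, with points in replicate order and a bar for the mean ± SD (n = 6). Ppargc1a lies between 3.46 and 14.9 TPM in vehicle, below all sham libraries, and Acot1 between 1.39 and 2.83 TPM in sham, below all others; the SD bar of Acsl1 in sham runs below 0 and is not drawn there.

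The comparison of ISM012-042 with vehicle asks what the compound changed in the inflamed colon. No member passed the test, and no gene of the 14129 did (0% in either direction), although 4 members and 2688 of all genes (19.0%) had an unadjusted limma p below 0.05. For 0 members did the libraries of the 2 groups lie apart, against 0.651% of all genes with ISM012-042 above and 0.0212% with it below. All 32 members had positive differences with a median of 0.35, while 13011 of the 14129 genes tested were also positive with a median of 0.30. Median-ratio scaling moved the median of all genes to 0.01 and that of the members to 0.01, with 16 of 32 members positive. The direction of the members as a whole was that of the shift of all genes, and median-ratio values are given beside those of the 6 members named below.

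The smallest unadjusted p among members was that of Ppargc1b, at 0.61 ± 0.23 (adjusted p = 0.242), and with median-ratio scaling 0.31 (adjusted p = 0.837). The other coactivator, Ppargc1a, was at 0.67 ± 0.31 (adjusted p = 0.258), with group means of 8.01 ± 4.38 TPM in vehicle and 13.0 ± 5.79 TPM in ISM012-042 (SD, n = 6), and 0.36 with median-ratio scaling. Acadm, which starts the oxidation of medium chains, had lowest, median and highest levels of 55.1, 115.6 and 137.3 TPM in sham, 70.1, 88.7 and 117.0 TPM in vehicle and 84.1, 124.7 and 155.8 TPM in ISM012-042. Its difference from vehicle was 0.47 ± 0.22 (adjusted p = 0.255), and 0.14 with median-ratio scaling. The libraries of the 3 groups overlapped.

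Decr1 was at 23.1, 32.6 and 35.4 TPM (lowest, median, highest) in sham, 19.7, 28.3 and 39.8 TPM in vehicle and 28.4, 41.7 and 43.8 TPM in ISM012-042. ISM012-042 replicates 2 and 3 lay within the vehicle range and the other 4 above it. The difference was 0.38 ± 0.17 (adjusted p = 0.252), and 0.05 with median-ratio scaling. Ehhadh was at 10.3, 23.3 and 27.7 TPM in sham, 14.2, 15.3 and 28.1 TPM in vehicle and 11.4, 29.3 and 41.6 TPM in ISM012-042, a difference of 0.50 ± 0.29 (adjusted p = 0.308), and 0.18 with median-ratio scaling (adjusted p = 0.987). Eci1 was at 28.1, 41.4 and 46.8 TPM in sham, 35.4, 41.1 and 60.3 TPM in vehicle and 38.0, 52.0 and 69.0 TPM in ISM012-042, a difference of 0.29 ± 0.17 (adjusted p = 0.311) that became -0.04 with median-ratio scaling. The groups overlapped for each of these enzymes.

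**Figure D2:**
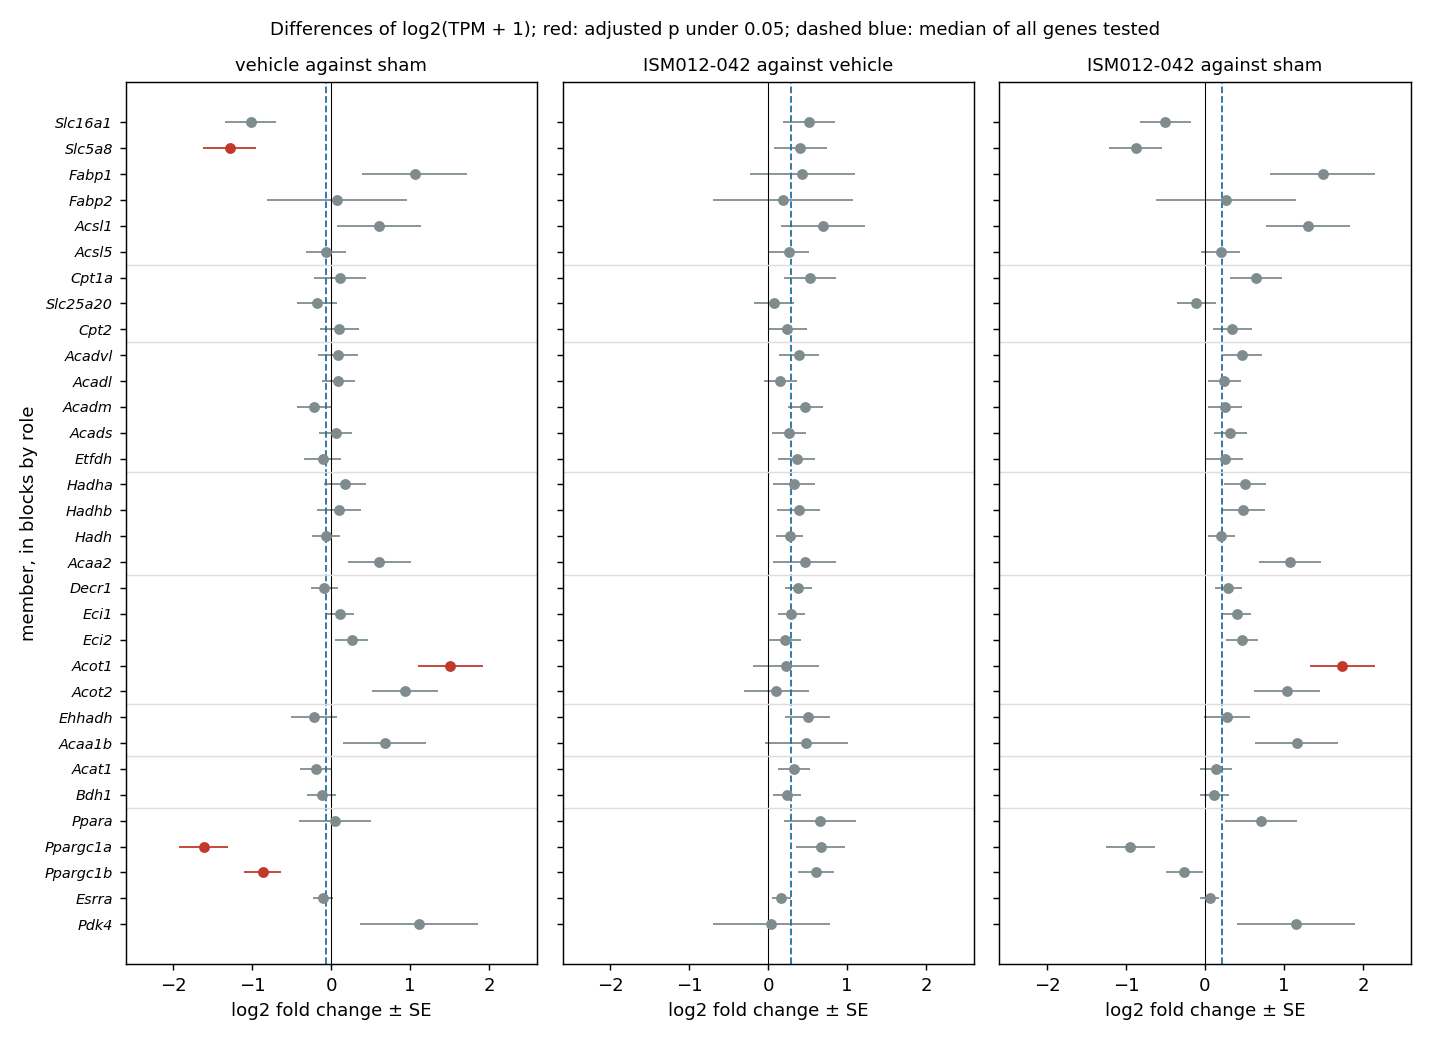
Difference of log2(TPM + 1) with its SE (horizontal axes) for the 32 members in blocks by role (vertical axis), in 3 panels for the 3 comparisons; red points have an adjusted limma p below 0.05 and the dashed line is the median of all genes tested. Red points are 4 in vehicle against sham, 0 in ISM012-042 against vehicle, where all 32 points lie above 0 around a median of 0.35, and 1 in ISM012-042 against sham.

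The comparison of ISM012-042 with sham uses the same sham libraries as the first comparison and the same treated libraries as the other, so its values are not independent of them. Acot1 rose by 1.74 ± 0.41 (adjusted p = 0.0411), against 0.545% of all genes that rose, and no member fell, against 0.871%. Of the members, 10 had an unadjusted p below 0.05, against 20.8% of all genes, and the median member was at 0.31 against 0.21 for all genes. With median-ratio scaling 1 member rose and 2 fell, and over all genes 137 rose (0.970%) and 618 fell (4.37%) in place of 77 and 123.

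The Acot1 call was lost without sham replicate 1, 2, 3, 4 or 5 and without ISM012-042 replicate 1, 2, 4 or 5, with adjusted p from 0.0637 to 0.1003, and with the adipocyte markers as a covariate the difference was 1.35 (adjusted p = 0.244). Acot2 was 1.04 ± 0.41 above sham (adjusted p = 0.188). Ppargc1a was at -0.95 ± 0.31 (adjusted p = 0.128) and Slc5a8 at -0.87 ± 0.33 (adjusted p = 0.173), and with median-ratio scaling both fell, by 1.15 (adjusted p = 0.0401) and 1.09 (adjusted p = 0.0305). Acaa2, the thiolase that closes the mitochondrial cycle, had lowest, median and highest levels of 34.7, 76.2 and 129.2 TPM in sham, 42.3, 113.9 and 187.9 TPM in vehicle and 82.8, 161.7 and 274.8 TPM in ISM012-042, a difference from sham of 1.08 ± 0.40 (adjusted p = 0.163). Acsl1 was at 5.59, 10.7 and 53.6 TPM in sham, 9.15, 14.7 and 57.3 TPM in vehicle and 15.8, 34.7 and 63.9 TPM in ISM012-042, a difference of 1.30 ± 0.53 (adjusted p = 0.198). In sham Acsl1, replicate 6 alone was high, and the groups overlapped for both genes. That library also had the highest summed adipocyte markers in sham, 3614 TPM. All 11 adipocyte markers were higher in ISM012-042 than in sham, with a median of 2.18 and none passing. With their mean as a covariate the differences were 0.35 for Acsl1 (adjusted p = 0.488), 0.56 for Acaa2 (adjusted p = 0.366) and 0.52 for Acot2 (adjusted p = 0.412). This covariate differed between the groups and was added after the data had been seen. The part of adipocyte content in these differences was not tested.

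Libraries of 1 group differed among themselves in these genes, and for some members the order went with Hoxb13, though not in the same direction in sham and vehicle. In sham, replicates 1 and 6, the libraries with low Hoxb13, were above all other sham libraries for 11 of 32 members, against 17.9% of all genes tested, and below them for 0, against 9.71%. Fabp2 was at 1069 to 1311 TPM in those libraries and 23.7 to 199.4 TPM in the rest, Ppara at 11.5 to 11.6 against 2.41 to 6.85 TPM, Pdk4 at 14.1 to 15.4 against 1.02 to 5.18 TPM and Acaa2 at 115.1 to 129.2 against 34.7 to 91.3 TPM. The others were Fabp1, Acadvl, Acadm, Acads, Etfdh, Hadha and Acaa1b. In vehicle, replicates 3, 4 and 5 were below the rest for 8 of 32 members, Slc16a1, Slc5a8, Acsl5, Cpt2, Etfdh, Acat1, Bdh1 and Ppargc1b. However, 49.0% of all genes were below in those libraries too, and they also had the highest mitochondrial shares. Those libraries were above the rest for 0 members, against 2.71% of all genes. Etfdh was thus above the rest in sham and below it in vehicle. The part of position and of mitochondrial share in these orders was not tested.

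**Figure D3:**
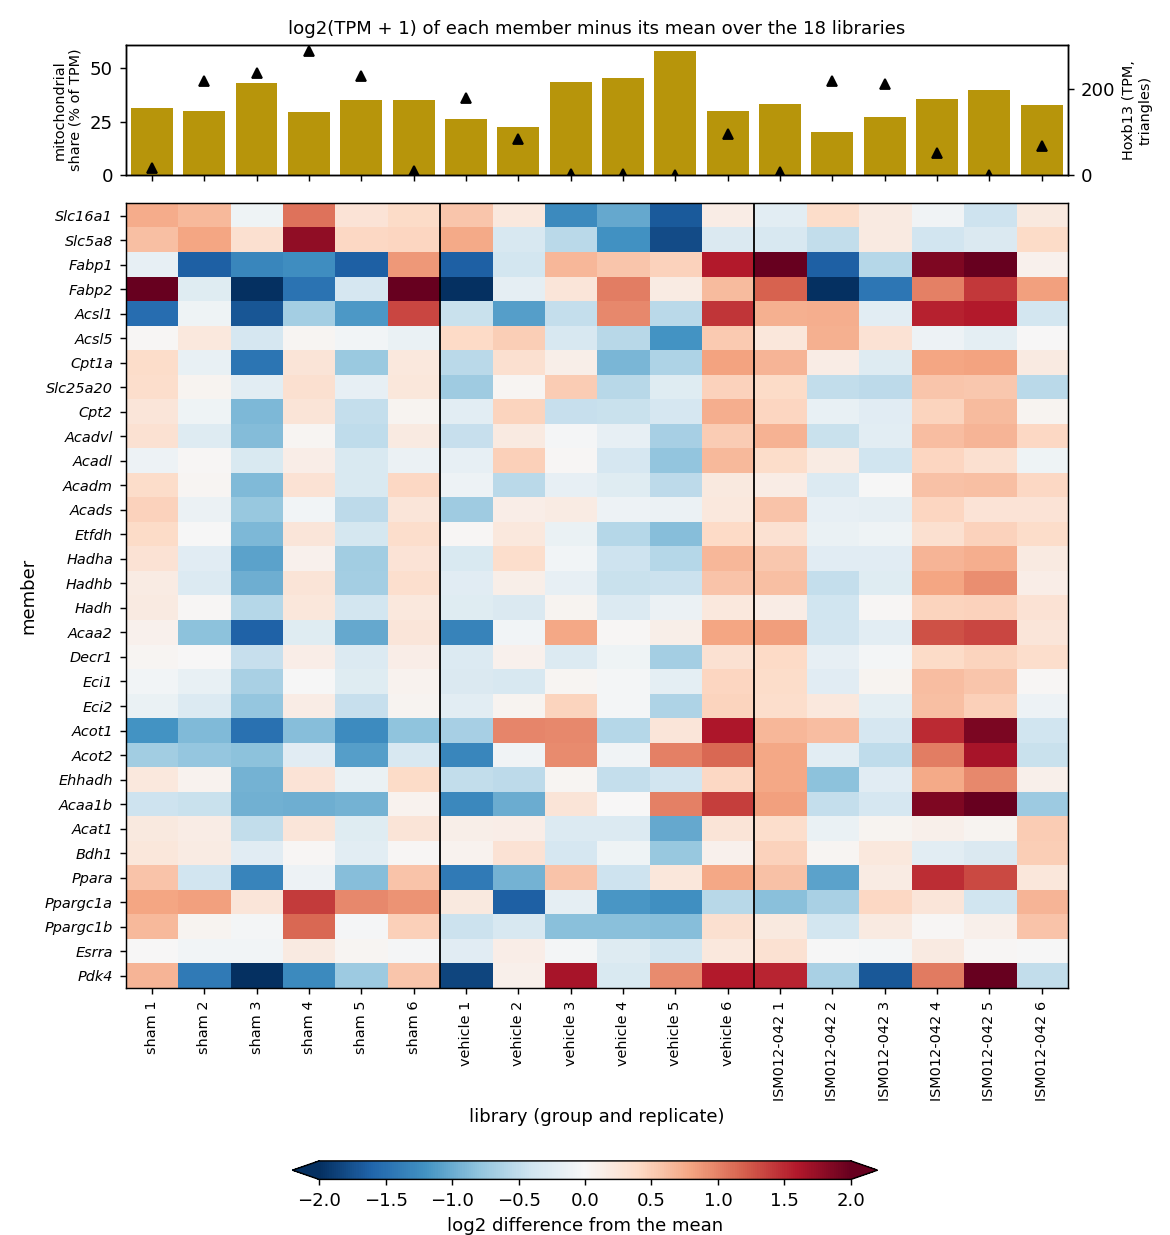
Each member's log2(TPM + 1) minus its mean over the 18 libraries (colour scale, ends at 2 in either direction), with libraries in columns by group and replicate; the strip above gives the mitochondrial share of TPM (bars, left axis) and Hoxb13 (triangles, right axis). Ppargc1a is above its mean in all 6 sham libraries, Acot1 below its mean in all 6, and Fabp2 reaches 1069 to 1311 TPM in sham replicates 1 and 6.

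**Figure D4:**
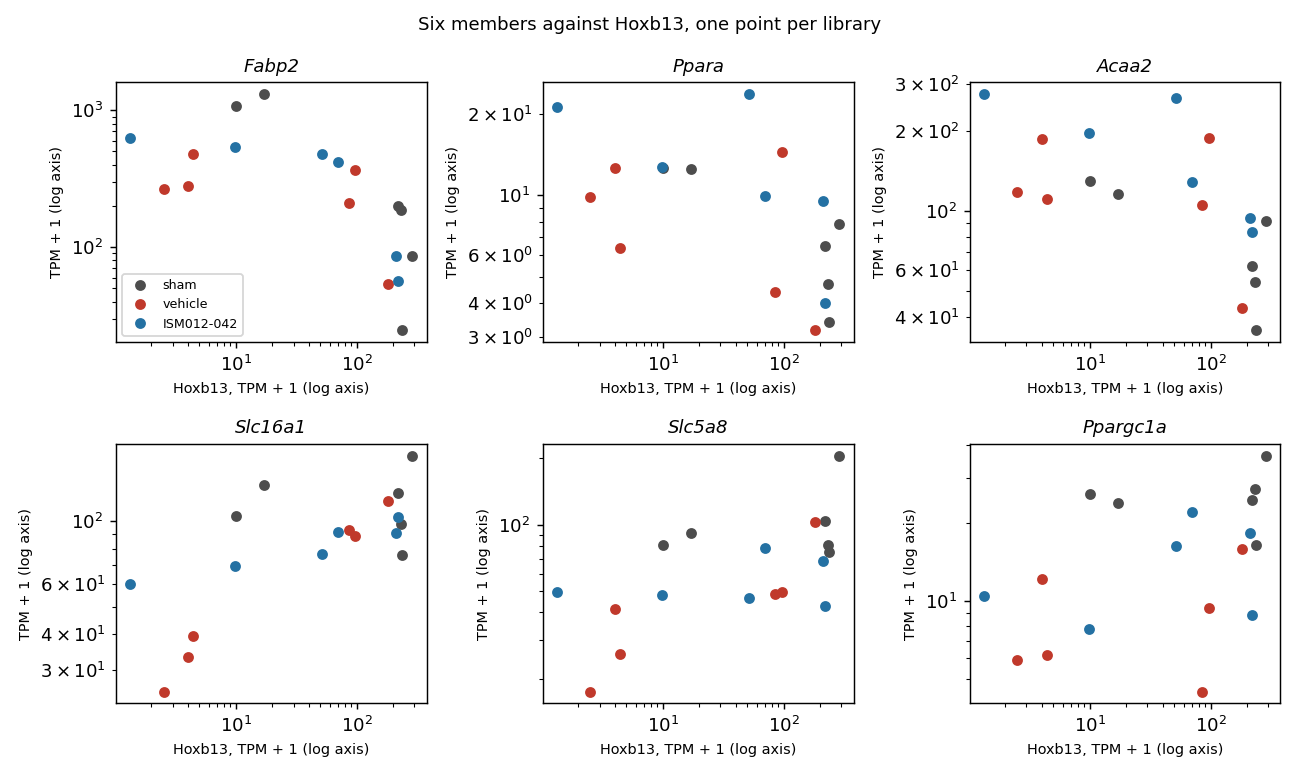
Level of 6 members (vertical, TPM + 1) against Hoxb13 (horizontal, TPM + 1) on log axes, 1 point per library, coloured by group. Fabp2 is highest in the sham libraries with Hoxb13 at 9.05 to 16.1 TPM, and Slc16a1 is lowest, 24.1 to 38.3 TPM, in the vehicle libraries with Hoxb13 at 1.52 to 3.4 TPM.

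Fabp1 was the only member whose window held the loose direct repeat, 2 copies of AGGNCA in a row with 1 base between them, the arrangement that PPAR binds, which occurred in 0.338% of all windows. It lies 67 to 55 bases before the start, and a further AGGTCA core on the same strand as the repeat lies 9 to 4 bases before it; AGGTCA alone occurred in 14.0% of all windows and in 4 of the 28 members, the others being Acadm, Acadvl and Cpt1a. The strict repeat, with AGGTCA in place of AGGNCA (0.0335% of all windows), the extended core TCAAGGTCA (0.387%) and the cyclic AMP element TGACGTCA (1.55%) were found in 0 members. The AGGTCA core inside the repeat is part of it. The window (GRCm38.p6, plus strand, chr6:71199629-71199878) follows with these matches in capitals. That of Hadhb (plus strand, chr5:30155003-30155252) is shown with it because the Hadha gene starts 272 bases away in the opposite direction and shares this sequence.
Fabp1: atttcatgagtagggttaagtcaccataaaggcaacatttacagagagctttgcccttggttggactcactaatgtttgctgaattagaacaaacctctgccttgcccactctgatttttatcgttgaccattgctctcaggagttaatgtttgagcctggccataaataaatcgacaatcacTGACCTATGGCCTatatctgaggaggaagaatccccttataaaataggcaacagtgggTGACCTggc
Hadhb: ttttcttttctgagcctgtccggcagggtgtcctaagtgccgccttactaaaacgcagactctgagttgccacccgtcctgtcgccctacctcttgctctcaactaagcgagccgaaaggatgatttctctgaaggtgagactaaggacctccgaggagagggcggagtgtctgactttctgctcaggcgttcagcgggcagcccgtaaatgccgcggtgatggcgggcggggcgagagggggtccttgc

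The Hadhb level was 1.22 to 1.51 times that of Hadha in the sham libraries, 1.13 to 1.46 times in vehicle and 1.12 to 1.53 times in ISM012-042, so the ranges of the ratio overlapped in all groups while the levels themselves ran from 52.8 to 186.6 TPM for Hadha and 75.4 to 285.6 TPM for Hadhb.

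Among related genes outside the 32, the ketone body list had 8 of 9 genes tested and 0 past the threshold in each comparison. Over all genes tested, 4.13% fell and 0.326% rose in vehicle against sham. Of 25 other mitochondrial enzymes tested, 2 fell in vehicle against sham, Acsl3, a long-chain acyl-CoA synthetase, by 1.31 ± 0.21 (adjusted p = 0.00261) and Acad11, an acyl-CoA dehydrogenase, by 1.02 ± 0.25 (adjusted p = 0.0238), and 0 rose. Of 9 tested genes of short-chain fatty acid entry, activation and sensing, 1 fell, Slc26a3, the chloride and bicarbonate exchanger of surface colonocytes, by 2.66 ± 0.46 (adjusted p = 0.00500), with a sham mean of 999.7 ± 451.2 TPM and a vehicle mean of 174.8 ± 89.8 TPM (SD, n = 6).

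Of 31 tested partners and targets of PPAR and PGC-1, 2 fell in vehicle against sham and 1 rose, against 4.13% and 0.326% of all genes. Pdk2, a pyruvate dehydrogenase kinase, fell by 0.87 ± 0.18 (adjusted p = 0.0104) and Sirt3, the mitochondrial deacetylase, by 0.59 ± 0.15 (adjusted p = 0.0303). Creb3l3, a transcription factor of liver and intestine, rose by 1.51 ± 0.35 (adjusted p = 0.0174), from 0.964 to 5.39 TPM. In ISM012-042 against sham 1 of the 31 rose, against 0.545% of all genes. This was Ucp2, a mitochondrial carrier, which rose by 0.68 ± 0.15 (adjusted p = 0.0307), from 273.4 ± 15.2 to 447.2 ± 100.0 TPM (SD, n = 6). Its vehicle mean lay between these, at 370.4 ± 71.4 TPM (SD, n = 6). None of the 18 tested genes of peroxisomal and omega oxidation passed in any comparison, and none of the listed genes of any kind passed in ISM012-042 against vehicle. Among marker genes, 9 of 10 neutrophil genes were higher in vehicle than in sham, and 4 of them passed, against 0.326% of all genes that rose. These were S100a8, S100a9, Retnlg and Lcn2, which rose by 6.63 ± 1.20, 6.66 ± 1.19, 4.15 ± 0.92 and 4.66 ± 1.09. S100a8 reached 12002 TPM in vehicle replicate 2, against a vehicle median of 226.9 TPM. The neutrophil marker Ly6g went the other way, with medians of 415 TPM in sham and 174 TPM in vehicle. The 9 smooth muscle markers were all lower in vehicle than in sham, with a median of -0.69 and none passing. Of these, 5 had an unadjusted limma p below 0.05, against 18.1% of all genes in either direction. The 5 tested markers of position along the colon were all lower too, with a median of -2.04.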

How the data were processed

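Total RNA of mouse colon was purified (RNeasy) and reverse transcribed (FastKing), per the labels' protocols. For 18 libraries and 35976 symbols the authors deposited TPM; the submitters' processing notes name DRAGEN 4.0.3 and mm10, while the annotation and the way reads were counted, by strand or not, are not given in the sources used. All columns matched a sample, with 0 columns of other samples, and the highest correlation between libraries was 0.986. TPM keeps no depth, so no count model was used.

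Levels were analysed as log2(TPM + 1) for the 14129 genes that reached 1 TPM in 6 or more libraries. A single limma fit (version 3.58.1, R 4.3.3) took in all 18 libraries without covariates and used a robust empirical Bayes prior with a mean-variance trend; calls were made at a Benjamini-Hochberg adjusted p below 0.05. The script was tested on simulated data. The 32 members, 5 related gene lists and 6 marker lists (160 genes in all, 137 tested) were chosen with earlier results of these data known. Members past the threshold in any comparison, and those of smallest p up to 6 a comparison, are given by library; up to 4 passing genes of each list are named, and some listed genes are not reported here. Positions and upstream sequences are from RefSeq tables of GRCm38.p6, the assembly of mm10, with 28 members matched; transcripts were compared with Biopython 1.88. The 34 alternatives comprised other pseudocounts (0.1, 5), filters, scalings, covariates, priors, array weights, a replicate block and each library left out; the adipocyte and epithelial marker covariates, and Hoxb13 with median-ratio scaling, were added after the data had been seen.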

Additional observations from a re-analysis of the deposited data

Results flagged for a closer look

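In each group of 6 libraries, the highest and lowest log2(TPM + 1) of each member was set against the rest. On that scale, 2 of 96 groups held a library whose gap to the nearest other, over the range, exceeded Dixon's critical value. Chance flags about 1 group in 20. Slc5a8 in sham replicate 4 was at 204.6 TPM, with the other sham libraries at 74.1 to 103.1 TPM. Without that library the difference of vehicle from sham was -1.08 and did not pass (adjusted p = 0.0930). Acads in vehicle replicate 1 was at 54.34 TPM, with the other vehicle libraries at 82.1 to 104.3 TPM, and Acads passed in no setting of vehicle against sham.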

How the results depend on the processing

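The fall of Ppargc1a in vehicle against sham passed in all 34 alternatives, and the other member counts moved with the settings. In vehicle against sham the number of members that rose was 0 in place of 1 with a pseudocount of 5, no filter, array weights, the replicate block, the Hoxb13 covariate, the adipocyte covariate or the epithelial covariate, and the number that fell was 1 in place of 3 with no filter, with only the groups compared, with array weights, and with the Hoxb13 or epithelial covariate. Smaller changes in the number that fell are not listed here, and Slc5a8 also failed to pass with the replicate block. Leaving out each library gave 0 to 2 that rose and 1 to 4 that fell. In ISM012-042 against sham the number that rose was 0 in place of 1 with a pseudocount of 5, no filter, quantile normalization, the replicate block, Hoxb13 with median-ratio scaling or the adipocyte covariate, 4 with the epithelial covariate and 17 with array weights; the number that fell was 1 in place of 0 with the mitochondrially encoded genes left out, 2 with median-ratio scaling, quantile normalization, the mitochondrial share as a covariate or Hoxb13 with median-ratio scaling, and 3 with array weights. The share of all genes called was counted only for the main fit and for median-ratio scaling. The counts under the other settings, such as the 17 with array weights, therefore cannot be read as particular to the members. Leaving out each library gave 0 to 1 that rose and 0 that fell. In ISM012-042 against vehicle 0 members passed in any alternative, and Eci1 turned from 0.29 to -0.0369 (adjusted p = 0.996) with median-ratio scaling. The cause of these moves was not tested. Fabp1 was not tested at a TPM minimum of 5. Depth is unknown, so the precision of low members such as Acot1 and Fabp1 is known only from the spread between libraries.

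The groups share replicate numbers. Deviations of same-numbered libraries correlated from -0.26 to 0.18 for vehicle and sham, -0.38 to 0.61 for ISM012-042 and vehicle and -0.37 to 0.34 for ISM012-042 and sham, and 1, 1 and 0 of 6 correlated best with their own number, so the numbers were not taken to pair the samples. With the replicate block 0 members rose in vehicle against sham, where Acot1 had an adjusted p of 0.0814 and Slc5a8 of 0.0573, and 0 rose in ISM012-042 against sham (Acot1, adjusted p = 0.0771).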

Other observations

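The library that was highest or lowest for most members was not always the one that was so for most genes. In ISM012-042, replicate 5 was the highest library of its group for 16 of 32 members and for 3.89% of all genes tested, and the lowest for 3 members and for 52.6% of all genes. Replicate 2 of that group was the lowest for 16 members and for 10.6% of all genes, and the highest for 2 members and 50.3% of all genes. Hoxb13 was at 0.329 TPM in replicate 5, and the mitochondrial share was highest in replicate 5, at 39.8%, and lowest in replicate 2, at 20.1%. In vehicle, replicate 6 was the highest library for 24 members and for 26.1% of all genes. In sham, replicate 3 was the lowest for 28 members and for 54.1% of all genes.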
